A study of Mus musculus with 19 samples.

Results

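Unmethylated CpG-dense stretches of the mouse genome that carried none of the deposited H3K27ac or H3K4me1 peaks were examined, together with the RNA of the genes that start in them. A member is a 1 kb bin on an autosome with 20 or more CpGs listed in all 3 methylation libraries, a mean methylation level of 0.10 or less in the untreated library, and no overlap with any peak of the 4 H3K27ac and 2 H3K4me1 lists. There were 9352 such bins among 71969 CpG-dense bins and 2167833 autosomal bins with a common CpG. The bins were selected on the untreated methylation level and the peak calls, so their low untreated level and their lack of peaks are given as a description.

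All samples were hippocampal neurons of embryonic day 17 mice, cultured for 10 days. Cultures received bicuculline with 4-aminopyridine for 3 h (Bic/4AP, which blocks inhibition and raises firing) or tetrodotoxin (TTX, a blocker of sodium channels that silences firing), or were left untreated. RNA was measured in 3 libraries for each of the 3 treatments, from ICR mice. Methylation was measured in 1 library for each treatment, from C57BL/6 mice, and the peak lists came from ICR cultures, 2 H3K27ac lists with Bic/4AP, 2 H3K27ac lists untreated and 2 H3K4me1 lists untreated. Methylation values thus come from another strain than the RNA and the peak lists. RPKM values are reads divided by gene length and by library size. At the deposited scaling, the summed RPKM of 12 neuron markers was between 1304 and 1331 with Bic/4AP. It was between 805 and 892 with TTX and between 813 and 964 untreated. With Bic/4AP against untreated, 11 were called higher and 1 lower (limma, adjusted p of 0.05 or less), against 29.6% and 42.5% of all genes tested. The counts were 4 and 3 under quantile normalization, against 38.8% and 30.9%, and 2 and 8 under cyclic loess, against 35.8% and 35.0%. The sum of 9 microglia markers was between 8.23 and 10.8 with Bic/4AP, between 9.60 and 12.7 with TTX and between 8.10 and 10.1 untreated. Of the 9, 3 (Cx3cr1, Tmem119 and P2ry12) were below 1 RPKM in all libraries. The 12 astrocyte markers summed to between 276 and 310 RPKM with Bic/4AP, between 244 and 269 with TTX and between 206 and 213 untreated. With Bic/4AP against untreated, 8 of them were higher and 2 lower (7 and 1 under quantile normalization, 6 and 1 under loess), against the same shares of all genes. The 9 oligodendrocyte lineage markers summed to between 22.8 and 29.7 with Bic/4AP, between 43.0 and 52.2 with TTX and between 23.3 and 29.99 untreated. Sox10 and Mog were below 1 RPKM in all libraries. Whether the 3 libraries of a treatment are 3 cultures is not in the labels. A p-value here speaks of the spread between libraries only, and that spread may be technical. RNA depth could be compared between libraries from the steps of the values: Bic/4AP libraries had 1.04, 1.06 and 1 times the reads of the shallowest library, TTX libraries 2.91, 2.73 and 2.23 times and untreated libraries 1.30, 2.30 and 1.32 times.

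Most CpGs of a mammalian genome are methylated, and the exception is the CpG island, a short stretch rich in CpG that covers many promoters and is kept free of methylation. H3K27ac, acetylation of lysine 27 on histone H3, marks active promoters and enhancers, and H3K4me1 marks enhancers. Islands of developmental regulators that are off in a tissue are commonly unmethylated and bound by Polycomb complexes, which place a repressive mark on the same lysine. No Polycomb mark was measured in this series.

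Promoters of 6 genes that start in member bins are printed to show how such stretches look in genes with very different RNA. Nkx6-1, Foxd3 and Hoxd13 are developmental transcription factors with little or no RNA here, and Nkx6-1 and Foxd3 lie in some of the longest runs of member bins. Egr4 had the largest rise with Bic/4AP among genes starting in member bins at the deposited scaling, and Sst and Arl6ip1 were among the 8 such genes with the most RNA in untreated libraries. Each sequence is the RefSeq promoter of build GRCm38.p6 (mm10), from 250 bases before the annotated start to 50 after it, written 5′ to 3′ on the gene's strand with every CpG in capitals.
Nkx6-1, chr5:101664662-101664961, minus strand: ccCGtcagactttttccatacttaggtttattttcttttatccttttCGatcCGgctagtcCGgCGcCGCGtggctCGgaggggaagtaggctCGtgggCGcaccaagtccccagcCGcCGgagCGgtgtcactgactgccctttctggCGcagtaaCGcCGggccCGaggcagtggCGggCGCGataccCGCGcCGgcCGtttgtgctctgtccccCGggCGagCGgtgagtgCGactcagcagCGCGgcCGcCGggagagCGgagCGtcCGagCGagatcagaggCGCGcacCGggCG
Foxd3, chr4:99656049-99656348, plus strand: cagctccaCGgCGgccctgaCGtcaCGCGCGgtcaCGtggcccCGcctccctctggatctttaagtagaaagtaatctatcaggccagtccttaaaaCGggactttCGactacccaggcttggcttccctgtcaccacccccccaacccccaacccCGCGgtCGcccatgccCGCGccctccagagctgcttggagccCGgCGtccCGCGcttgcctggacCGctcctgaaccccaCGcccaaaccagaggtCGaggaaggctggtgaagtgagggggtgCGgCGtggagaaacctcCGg
Hoxd13, chr2:74667975-74668274, plus strand: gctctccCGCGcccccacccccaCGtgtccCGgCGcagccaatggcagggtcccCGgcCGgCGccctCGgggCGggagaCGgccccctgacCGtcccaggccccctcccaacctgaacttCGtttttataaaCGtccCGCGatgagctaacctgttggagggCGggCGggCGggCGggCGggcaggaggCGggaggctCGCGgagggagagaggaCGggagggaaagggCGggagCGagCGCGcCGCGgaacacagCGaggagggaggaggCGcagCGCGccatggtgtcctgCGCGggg
Egr4, chr6:85513540-85513839, minus strand: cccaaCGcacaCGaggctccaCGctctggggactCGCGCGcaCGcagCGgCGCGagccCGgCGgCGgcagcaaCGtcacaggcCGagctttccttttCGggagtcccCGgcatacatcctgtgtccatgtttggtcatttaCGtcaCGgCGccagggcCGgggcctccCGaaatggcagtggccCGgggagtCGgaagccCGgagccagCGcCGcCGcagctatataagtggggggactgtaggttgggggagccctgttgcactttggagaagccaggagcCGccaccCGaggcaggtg
Sst, chr16:23890795-23891094, minus strand: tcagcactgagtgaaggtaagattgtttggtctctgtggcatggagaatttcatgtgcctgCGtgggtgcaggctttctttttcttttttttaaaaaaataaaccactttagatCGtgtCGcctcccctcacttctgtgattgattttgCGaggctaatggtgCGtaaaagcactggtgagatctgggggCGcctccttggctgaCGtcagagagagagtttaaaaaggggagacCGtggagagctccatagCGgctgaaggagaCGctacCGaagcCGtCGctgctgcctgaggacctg
Arl6ip1, chr7:118129576-118129875, minus strand: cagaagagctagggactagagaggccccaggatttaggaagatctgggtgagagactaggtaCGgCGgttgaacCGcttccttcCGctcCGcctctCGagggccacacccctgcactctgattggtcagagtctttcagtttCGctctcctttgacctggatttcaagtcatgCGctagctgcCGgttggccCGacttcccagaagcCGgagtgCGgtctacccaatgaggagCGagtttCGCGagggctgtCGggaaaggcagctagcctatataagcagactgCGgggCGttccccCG
The 300 bases held 40 CpGs at Nkx6-1, 25 at Foxd3, 37 at Hoxd13, 30 at Egr4, 13 at Sst and 19 at Arl6ip1. The letters of the cAMP response element, TGACGTCA, were present in the windows of Foxd3 and Sst, and those of the TATA box, TATAAA, in that of Hoxd13. These are exact matches anywhere in the 300 bases, and their distance from the start was not assessed.

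Member bins held a median of 46 CpGs, against 50 in the 11970 CpG-dense unmethylated bins that carried a peak. Their mean methylation level was 0.0357 with Bic/4AP, 0.0361 with TTX and 0.0356 untreated, and that of peak-bearing bins was 0.0241, 0.0245 and 0.0239. An annotated gene start lay in 3674 member bins (39.3%), against 5717 peak-bearing bins (47.8%) and 2952 (5.83%) of the 50647 CpG-dense bins above 0.10. Gene spans covered 88.6% of member bins, and 1066 lay outside any gene span. A peak lay within 1 kb of 946 member bins (10.1%). Whether a bin had a peak depended on the list: the second H3K27ac list with Bic/4AP overlapped 52.6% of the unmethylated CpG-dense bins and the second untreated list 41.5%, while the first lists overlapped 28.1% and 11.5%, and neither H3K4me1 list overlapped more than 0.417%. Lack of a peak is thus lack of a called peak, and weak acetylation below the authors' threshold would not be seen. The members nearest below the limit were the bin at chr11:80154000-80154999, which holds the start of Adap2 and had an untreated level of 0.0999, and the bin at chr4:19709000-19709999 in the span of Wwp1, at 0.09996 untreated. The bins nearest above it, in the spans of Etnk2 and Lypd6b, were at 0.10003 and 0.10004 untreated.

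Methylation of member bins stayed near its untreated level with both treatments. With 1 library for each treatment, and no coverage in the deposited files, there is no replicate check and the depth behind each level is unknown. The mean difference over members was 0.000126 for Bic/4AP minus untreated, 0.00045 for TTX minus untreated and -0.000325 for Bic/4AP minus TTX, and the SD over bins was 0.0128, 0.0130 and 0.0122. Differences beyond 0.05 were found in 45 members with Bic/4AP (37 higher, 8 lower) and in 52 with TTX (46 higher, 6 lower). These are 0.481% and 0.556% of members, against 0.226% and 0.242% of peak-bearing bins and 11.4% and 11.7% of CpG-dense bins above 0.10. The excess of higher bins is partly built in, because members had to be low in the untreated library. At 0.05 or less untreated lay 6654 of the 9352 members, and such bins could not fall by more than 0.05. The share of members beyond 0.05 was thus limited by the level rule. Its distance from the share of bins above 0.10 is not a result about members. Between Bic/4AP and TTX, which the rule did not use, 39 members (0.417%) differed by more than 0.05, 19 higher and 20 lower with Bic/4AP. The limit of 0.10 was passed by 289 members (3.09%) in the Bic/4AP library and by 344 (3.68%) in the TTX library, 155 of them in both.

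**Figure D1:**
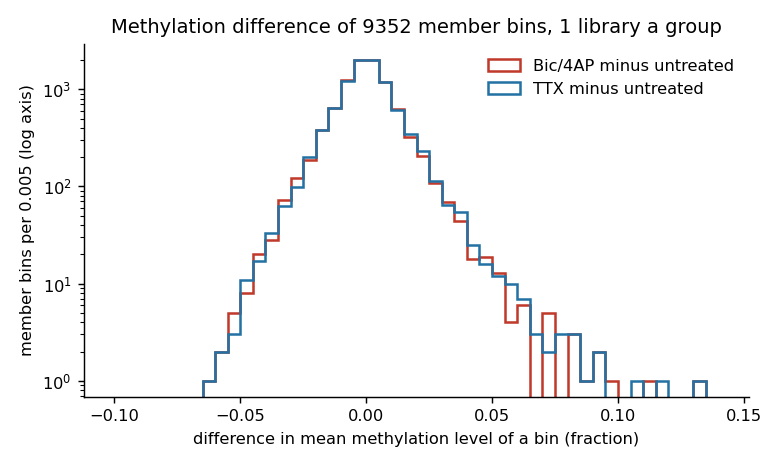
Difference in mean methylation level (fraction) of each of the 9352 member bins from the untreated library, with Bic/4AP and with TTX, as counts per 0.005 on a log axis, from 1 library a group. Both outlines centre on 0, with the highest bin at 0.131 in each.

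The largest difference with either treatment was at chr15:102270000-102270999, a bin of 20 CpGs inside the span of Gm9918, with a level of 0.220 in the Bic/4AP library, 0.220 in the TTX library and 0.0891 in the untreated library. A bin of 25 CpGs in the span of Rbm12b1, which encodes a predicted RNA-binding protein (chr4:12140000-12140999), was at 0.170 with Bic/4AP, 0.111 with TTX and 0.0571 untreated. One of 20 CpGs in the span of Rfx6, a factor of endocrine pancreas development (chr10:51678000-51678999), was at 0.161 with Bic/4AP, 0.111 with TTX and 0.0621 untreated. With TTX, a bin of 23 CpGs in Grik3, a kainate receptor subunit (chr4:125492000-125492999), was at 0.206, against 0.134 with Bic/4AP and 0.0867 untreated. The 4 bins that fell furthest with each treatment held between 21 and 41 CpGs. The bin 109 bases from Dlx1as, a transcript antisense to the interneuron factor gene Dlx1, was at 0.0193 with Bic/4AP, 0.0661 with TTX and 0.0776 untreated. A bin in the span of Dach1, a transcriptional cofactor of eye and limb development, was at 0.0182 with Bic/4AP, 0.0483 with TTX and 0.0728 untreated. Bins in the spans of the T-box genes Tbx15 and Tbx3 were at 0.0185 and 0.0388 with TTX, against 0.0785 and 0.0944 untreated, and a bin of 41 CpGs in the span of Sctr, the secretin receptor gene, was at 0.0269 with TTX, against 0.0786 untreated.

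Most genes that start in a member bin were not silent. Of 3468 genes with a start in a member bin, 406 (11.7%) were silent, which here means below 1 RPKM in all 9 libraries. The share was 1.53% (87 of 5673) for genes that start in a peak-bearing bin and in no member bin, and 32.3% over all genes with an autosomal start. The median RPKM of genes starting in member bins was 4.22, 4.28 and 3.90 in the Bic/4AP libraries, 8.90, 8.36 and 7.56 in the TTX libraries and 6.38, 7.80 and 6.99 in the untreated libraries. For genes of peak-bearing bins it lay between 17.7 and 18.1 with Bic/4AP, between 23.8 and 24.4 with TTX and between 20.1 and 21.6 untreated, so it was higher than in genes of member bins in all 9 libraries. In untreated libraries 17.7% of the genes starting in member bins reached 20 RPKM or more, against 51.7% of those of peak-bearing bins. A start in a peak-bearing bin as well was annotated for 98 of the 3468 genes, and these had a median of 16.8 RPKM with Bic/4AP, 22.5 with TTX and 19.4 untreated. RNA is from whole cultures, where fewer cells of a type and less RNA per cell cannot be told apart.

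**Figure D2:**
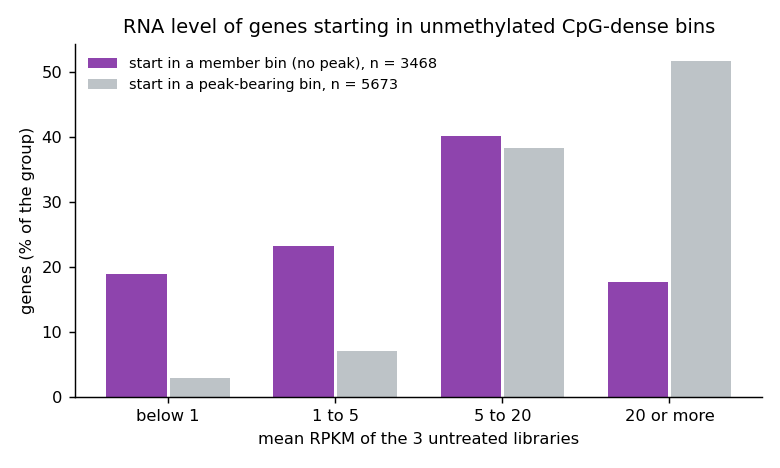
Share of genes (%) in 4 ranges of mean RPKM over the 3 untreated libraries, for genes starting in a member bin and for genes starting in a peak-bearing bin. Below 1 RPKM lay 18.9% of the genes of member bins and 2.96% of those of peak-bearing bins, with the reverse order at 20 RPKM or more.

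The 8 genes with the most untreated RNA among those starting in member bins were Ndrg4, Arl6ip1, Apoe, Gmfb, Atp6v1e1, Sst, Idh1 and Hspa5. Arl6ip1, a protein that shapes the endoplasmic reticulum, had 120, 118 and 120 RPKM with Bic/4AP, 66.0, 65.3 and 71.0 with TTX and 102, 80.0 and 98.0 untreated. Its start bin held 54 CpGs at a level of 0.0140 with Bic/4AP, 0.00933 with TTX and 0.00809 untreated. Sst, the neuropeptide somatostatin of a class of interneurons, had 141, 149 and 129 RPKM with Bic/4AP, 91.9, 93.4 and 106 with TTX and 83.0, 72.8 and 67.8 untreated, without overlap between the 3 groups. The summed RPKM of 12 interneuron markers, Sst among them, was between 621 and 629 with Bic/4AP, between 399 and 445 with TTX and between 323 and 369 untreated, and its part in the Sst values was not tested. Sst was higher than untreated with both treatments at all 3 scalings, while the order of the treatments turned round: the log2 difference of Bic/4AP from TTX was 0.52 at the deposited scaling, -0.31 under quantile normalization and -0.40 under loess. For Arl6ip1 the log2 difference of Bic/4AP from untreated was 0.36, -0.17 and -0.29 at the same scalings. Apoe, a lipid carrier made by glia and choroid plexus, had 17.5, 18.8 and 18.1 RPKM with Bic/4AP, 43.6, 40.3 and 43.2 with TTX and 84.1, 59.5 and 93.0 untreated, an order that it kept at all 3 scalings. High RNA stood beside an unmethylated start bin without a called H3K27ac peak at several genes of quite different cell types. Over all members, 98 genes also start in a peak-bearing bin and 946 bins have a peak within 1 kb. Whether these 8 genes are among them is not given here.

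Members lay mostly alone: of 6638 runs of adjacent member bins, 4704 were a single bin, and 83 reached 5 bins or more. Length went with silence in a description over genes. The silent share of genes starting in runs of 1, 2, 3 and 4 bins was 9.09%, 10.5%, 27.1% and 38.6%. It was 58.1% (36 of 62) in runs of 5 or more. By length, these gave 56.25%, 72.2%, 33.3%, 66.7% and 33.3% in runs of 5, 6, 7, 8 and 9 bins. Runs of 7, 8 and 9 bins held the starts of only 6, 3 and 3 genes. Runs of 5 or more held, by gene span, a gene of 1 of 8 lists of developmental factors and signals in 64 of 83 cases (77.1%). The longest runs, of 9 bins each, lay at Nkx6-1, a homeobox factor of pancreas and ventral spinal cord (chr5:101661000-101669999), and at Gata3, a zinc finger factor of T cells and inner ear (chr2:9877000-9885999). There were 6 runs of 8 bins. The 3 with the most CpGs lay at Skor1, a corepressor of dorsal spinal cord neurons (chr9:63142000-63149999), at Lbx1, a homeobox factor of muscle precursors and spinal interneurons (chr19:45229000-45236999), and at Foxd3, a forkhead factor of neural crest (chr4:99653000-99660999). The others, tied with these in length and named after their values were seen, lay at Gata6, an endoderm and heart factor, at Irx1, a homeobox factor of patterning, and at Pdgfra, a growth factor receptor of oligodendrocyte precursors and mesenchyme.

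**Figure D3:**
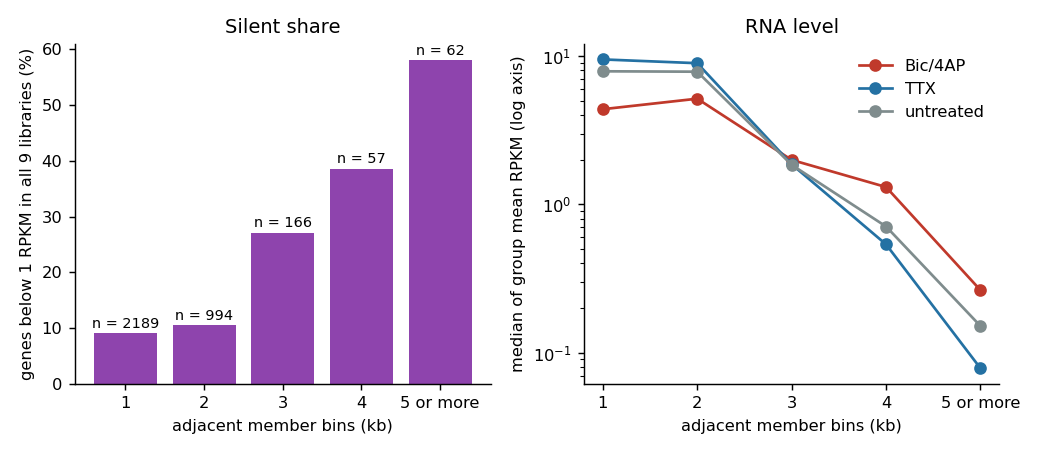
Left, share of genes (%) below 1 RPKM in all 9 libraries by the number of adjacent member bins around their start, with the number of genes above each bar. Right, median of group mean RPKM of the same genes on a log axis for Bic/4AP, TTX and untreated libraries. The silent share is 9.09% for single bins and 58.1% for runs of 5 or more.

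Of 10 measured genes in these 8 runs, 7 were silent, and Gata3, 4930412O13Rik and Pdgfra were not. Nkx6-1 had 0, 0 and 0.128 RPKM with Bic/4AP, 0.352, 0.188 and 0.345 with TTX and 0.0989, 0 and 0 untreated, which corresponds to between 0 and 8 reads in a library. Foxd3 was listed at 0 in 8 libraries and at 0.0435 RPKM in 1 TTX library, and Lbx1 was listed at 0 in all 9. Skor1 reached at most 0.116 RPKM with Bic/4AP, 0.111 with TTX and 0.132 untreated. Irx1 reached at most 0.112 RPKM with Bic/4AP and 0.0409 with TTX and was listed at 0 untreated, and Gata6 reached at most 0.270 with Bic/4AP, 0.147 with TTX and 0.186 untreated. Pdgfra had 0.554, 0.353 and 0.340 RPKM with Bic/4AP, 0.222, 0.460 and 0.305 with TTX and 2.15, 2.11 and 2.16 untreated, so its untreated libraries lay above all others. Gata3 had 1.51, 1.15 and 1.22 RPKM with Bic/4AP (22, 17 and 17 reads), 0.271, 0.157 and 0.161 with TTX and 0.110, 0.405 and 0.704 untreated. Its Bic/4AP libraries lay above all others. The noncoding gene 4930412O13Rik, which starts in the same run on the other strand, had 0.942, 1.34 and 1.31 RPKM with Bic/4AP, 0.112, 0.160 and 0.342 with TTX and 0.168, 0.570 and 0.495 untreated. The strand setting of the counting is unknown here, and reads of this pair cannot be told apart where the genes overlap.

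Developmental regulators made up a large part of the silent genes. Of the 406 silent genes starting in member bins 115 (28.3%) were in the 8 lists, against 99 of 3062 genes (3.23%) that were not silent. Seen from the lists, 388 of 508 autosomal list genes (76.4%) had a member bin in their span, against 5658 of 22749 measured autosomal genes (24.9%), and 199 of the 388 were silent (51.3%), against 14.1% of the 5658. Gene spans were used here because many of these genes have no start in the promoter table. A member bin in a span may lie in the gene body and not at its start.

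**Figure D4:**
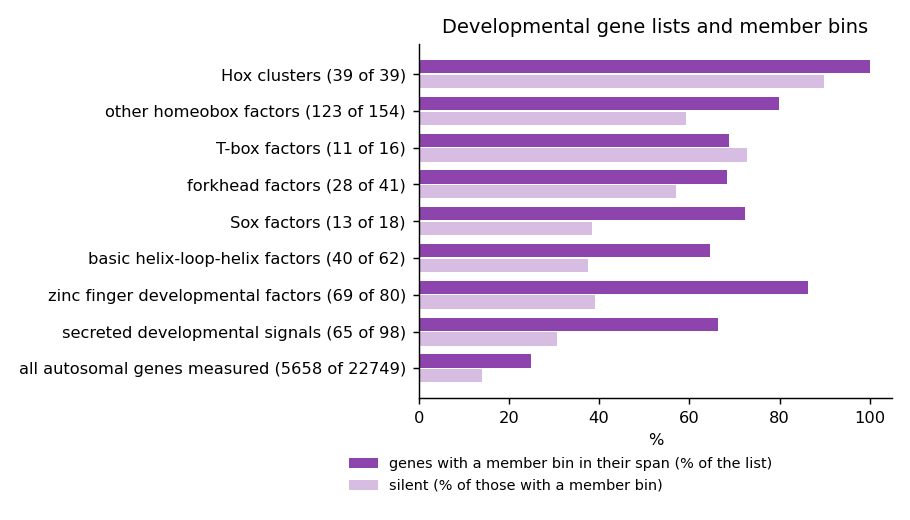
For 8 lists of developmental genes and for all measured autosomal genes, the share (%) with a member bin in the gene span, and the share of those that were silent. All 39 Hox genes have a member bin and 89.7% of them are silent, against 24.9% and 14.1% for all genes.

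The Hox genes, which set position along the body axis, had a member bin in all 39 cases, with a median of 3 bins in the span, and 35 were silent. Hoxa9 was listed at 0 in all 9 libraries. Hoxd13 had 0, 0.175 and 0.0928 RPKM with Bic/4AP and was listed at 0 in the TTX and untreated libraries. Hoxa13 was listed at 0 in the Bic/4AP and TTX libraries and had 0.135, 0.0764 and 0 RPKM untreated, a single read in each of 2 libraries. Hoxa10 had 0.703, 0.693 and 0.220 RPKM with Bic/4AP (10, 10 and 3 reads), 0.0252, 0 and 0.0329 with TTX and 0.282, 0.191 and 0.0554 untreated. Hoxd11, with 120 CpGs in its start bin at a level of 0.00818 with Bic/4AP, 0.0077 with TTX and 0.0061 untreated, had 0.682, 0.466 and 0.493 RPKM with Bic/4AP, 0.131, 0.0200 and 0.0736 with TTX and 0.0421, 0.262 and 0.207 untreated. Its Bic/4AP libraries lay above all others. The 4 Hox genes that were not silent, named after their values were seen, were Hoxb13, Hoxc13, Hoxd4 and Hoxd9. Hoxd9 had 3.26, 2.39 and 2.41 RPKM with Bic/4AP, 0.0377, 0.281 and 0.0984 with TTX and 0.930, 0.477 and 0.747 untreated. Hoxd4 had 1.90, 1.53 and 1.26 RPKM with Bic/4AP, 0.124, 0.0989 and 0.162 with TTX and 0.0694, 0.157 and 0.204 untreated. Hoxb13 went another way, with 0.505, 0.498 and 1.05 RPKM with Bic/4AP, 2.17, 2.51 and 1.65 with TTX and 0.270, 0.305 and 0.133 untreated.

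Other homeobox factors had a member bin in 123 of 154 cases, and 73 of these were silent. Nkx6-2, an oligodendrocyte and spinal cord factor with 122 CpGs in its start bin, was listed at 0 with Bic/4AP and had at most 0.0349 RPKM with TTX and 0.0677 untreated. Barhl2, a factor of retina and diencephalon, had 1.62, 1.98 and 1.10 RPKM with Bic/4AP (17, 21 and 11 reads), 0.103, 0.146 and 0.357 with TTX and 0.460, 0.607 and 0.301 untreated. Pax6, the eye and cortical progenitor factor, had 5 member bins in its span and 1.44, 1.12 and 1.88 RPKM with Bic/4AP, 1.65, 1.19 and 1.09 with TTX and 0.723, 1.33 and 1.23 untreated, so its groups overlapped.

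T-box factors had member bins in 11 of 16 cases, 8 of them silent. T (brachyury, of the mesoderm) had at most 0.216 RPKM with Bic/4AP, 0.0505 with TTX and 0.098 untreated, Eomes (an intermediate progenitor factor) at most 5 reads in a library, and Tbx5 (heart and forelimb), with 14 member bins in its span, at most 0.175 RPKM with Bic/4AP, 0.107 with TTX and 0.133 untreated. The 3 that were not silent were Tbx3, Tbx15 and Tbx18. Tbx3 had 1.64, 1.94 and 1.38 RPKM with Bic/4AP, 0.278, 0.331 and 0.278 with TTX and 0.330, 0.580 and 0.684 untreated. Forkhead factors had member bins in 28 of 41 cases (16 silent) and Sox factors in 13 of 18 (5 silent). Foxa1, of endoderm, had 0.347, 0.342 and 0.289 RPKM with Bic/4AP, 0.0744, 0.0529 and 0.0324 with TTX and 0.111, 0.0629 and 0.164 untreated, that is, between 1 and 5 reads in a library. Foxo1, a broadly expressed factor of insulin signalling, was a forkhead gene well above the silent range, at 13.5, 12.6 and 12.3 RPKM with Bic/4AP, 17.98, 17.3 and 15.3 with TTX and 13.9, 16.6 and 14.8 untreated.

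Zinc finger and related factors had member bins in 69 of 80 cases (27 silent) and basic helix-loop-helix factors in 40 of 62 (15 silent). Ebf3, a factor of neuronal differentiation with 127 CpGs in its start bin, had 0.528, 0.694 and 0.367 RPKM with Bic/4AP, 0.063, 0.0504 and 0.103 with TTX and 0, 0.160 and 0.0347 untreated. Runx3, of sensory neurons and T cells, had 1.02, 0.616 and 0.948 RPKM with Bic/4AP, 0.122, 0.0867 and 0.0266 with TTX and 0.0456, 0.180 and 0.358 untreated. Gata4, a heart and gut factor with 13 member bins in its span, had 1.56, 1.54 and 1.70 RPKM with Bic/4AP (24, 24 and 25 reads), 0.0466, 0.0497 and 0.0914 with TTX and 0.209, 0.473 and 0.616 untreated. In all 3 genes the Bic/4AP libraries lay above all others. Id4, an inhibitor of bHLH factors in progenitors and astrocytes, had 7.36, 9.55 and 7.27 RPKM with Bic/4AP, 5.30, 4.99 and 3.76 with TTX and 5.44, 7.16 and 7.86 untreated, and its Bic/4AP and untreated libraries overlapped.

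Secreted signals had member bins in 65 of 98 cases (20 silent), the smallest silent share of the 8 lists. Wnt1, a midbrain organizer signal, had at most 2 reads in a library. Ihh, a Hedgehog ligand of cartilage, was listed at 0 in the Bic/4AP libraries and had 0.615, 0.483 and 0.550 RPKM with TTX and 0.218, 0.369 and 0.214 untreated. Wnt4, a Wnt ligand of kidney and gonad development, had 1.73, 2.34 and 2.77 RPKM with Bic/4AP, 11.9, 10.2 and 8.78 with TTX and 2.14, 3.72 and 2.46 untreated, so that only TTX stood apart. Jag2, a Notch ligand whose start bin held 131 CpGs, had 1.14, 1.56 and 1.82 RPKM with Bic/4AP, 9.58, 8.91 and 8.90 with TTX and 14.6, 13.8 and 19.98 untreated. Shh, the Hedgehog ligand of the ventral midline, had 2.58, 3.29 and 3.24 RPKM with Bic/4AP, 2.44, 2.32 and 2.38 with TTX and 1.10, 1.79 and 0.957 untreated.

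Low RNA of developmental genes was more often higher than lower with Bic/4AP than untreated. Of 214 list genes starting in member bins, 82 passed the filter of 1 RPKM in at least 3 of the 9 libraries. Of these, 8 passed through Bic/4AP libraries alone, 3 through TTX libraries alone and 1 through untreated libraries alone. The fit was therefore also run with no filter on low values. In that fit of limma on log2(RPKM + 1), at an adjusted p of 0.05 or less, 65 of 202 developmental genes with any RNA were higher and 33 lower with Bic/4AP than untreated, against 23.5% higher and 31.9% lower over all 21541 genes fitted. With TTX, 36 were higher and 26 lower, against 28.3% and 18.4% of all genes. Among silent genes alone, 25 of 103 developmental genes starting in member bins were higher and 6 lower with Bic/4AP, against 10.2% and 8.28% of all 5614 silent genes with any RNA. The 287 silent genes of member bins in no developmental list gave 32 higher and 55 lower. With TTX, 7 of the 103 were higher and 3 lower, against 3.85% and 6.7% of all silent genes. The median of these 103 genes was 0.129 RPKM with Bic/4AP, 0.0633 with TTX and 0.0612 untreated, levels of a few reads a gene in libraries whose depth differed, and depth was lowest with Bic/4AP. The part of depth in these calls was not tested. Among the 82 genes past the filter, the 8 that passed through Bic/4AP alone included, 31 were higher and 27 lower with Bic/4AP, against 29.6% and 42.5% of all genes tested. The counts were 51 and 11 under quantile normalization, against 38.8% and 30.9%, and 44 and 12 under loess, against 35.8% and 35.0%. Markers of other cells differed between the same groups. The summed RPKM of 8 progenitor and cycling markers was between 31.3 and 35.4 with Bic/4AP, between 31.5 and 39.02 with TTX and between 15.9 and 20.96 untreated, with Mki67 and Eomes below 1 in all libraries, and 3 of 5 tested were higher with Bic/4AP (5 of 5 at both other scalings). That of 12 vascular and mesenchymal markers was between 40.1 and 50.2 with Bic/4AP, between 42.9 and 54.2 with TTX and between 28.7 and 35.99 untreated, with Cldn5 and Tek below 1 in all libraries, and 5 of 9 tested were higher and 2 lower with Bic/4AP (7 and 0 under quantile normalization, 6 and 0 under loess). The part of such cells in the calls of developmental genes was not tested.

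Counts of changes over all genes starting in member bins moved with the scaling of the values. At the deposited scaling, 2949 of the 3468 genes passed the filter, and with Bic/4AP 633 (21.5%) rose and 1460 (49.5%) fell relative to untreated, against 29.6% and 42.5% of all 14801 genes tested (limma on log2(RPKM + 1), adjusted p of 0.05 or less). Quantile normalization gave 1158 higher and 908 lower, against 38.8% and 30.9% of all genes, and cyclic loess 1045 and 1032, against 35.8% and 35.0%. Over all genes tested the median log2 change came to -0.12 with Bic/4AP, 0.13 with TTX and -0.33 between Bic/4AP and TTX. Log2 changes below are not corrected for these medians unless called relative. Genes starting in member bins had a median of -0.16 relative to all genes, and those of peak-bearing bins 0.07, but 0.01 and -0.03 under quantile normalization and -0.01 and -0.02 under loess. When genes were split by mean level into 4 classes of equal size, a split chosen after seeing the data, the shares with Bic/4AP against untreated lay within 4 percentage points of those of all genes in each class and those of the other comparisons did not. With Bic/4AP against untreated, in the lowest class 14.99% of genes starting in member bins were higher and 48.3% lower, against 16.3% and 46.4% of all tested genes there, and in the highest class 61.3% and 15.4%, against 65.2% and 16.2%. With TTX against untreated, 32.9% were higher and 25.7% lower in the lowest class, against 25.8% and 30.7% of all tested genes there, and 48.3% and 17.7% in the highest, against 36.5% and 27.7%. With Bic/4AP against TTX, 12.1% were higher and 54.5% lower in the lowest class, against 15.9% and 44.9%, and 43.3% and 38.4% in the highest, against 54.5% and 27.5%. Libraries of the groups did not overlap for 71.1% of the 2949 genes, against 71.3% of all genes tested.

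The rises with Bic/4AP included activity-regulated genes with a start bin that was unmethylated and without a called peak even in the Bic/4AP acetylation lists. Other starts of these genes, and peaks next to the bin, are not given here. Egr4, an early growth response factor induced by firing, had 40.7, 42.0 and 48.7 RPKM with Bic/4AP, 13.1, 11.8 and 11.8 with TTX and 3.30, 5.01 and 3.48 untreated, with a log2 change of 3.20 ± 0.12 (SE; 3.32 relative to all genes; adjusted p = 3.86e-09, limma). Its 3 groups did not overlap, and TTX lay above untreated. Its start bin, with 97 CpGs, was at 0.00938 with Bic/4AP, 0.0106 with TTX and 0.0105 untreated. Egr2, of the same family, had 13.6, 16.5 and 14.7 RPKM with Bic/4AP, 1.33, 0.711 and 1.01 with TTX and 1.08, 1.05 and 0.823 untreated (log2 change 3.01 ± 0.16; adjusted p = 1.69e-08, limma). Ptger4, a prostaglandin E2 receptor, had 11.5, 11.9 and 14.1 RPKM with Bic/4AP, 0.951, 1.06 and 0.963 with TTX and 0.373, 0.603 and 0.524 untreated (log2 change 3.16 ± 0.14; adjusted p = 7.51e-09, limma). Ccno, a cyclin needed for multiciliated cells, had 40.9, 43.3 and 41.4 RPKM with Bic/4AP, 14.4, 13.5 and 11.9 with TTX and 4.07, 5.56 and 3.16 untreated (log2 change 3.05 ± 0.14). Prok2, a secreted peptide, averaged 21.5 ± 0.5 RPKM with Bic/4AP, 3.30 ± 0.46 with TTX and 2.30 ± 0.77 untreated, and Rgs16, a regulator of G protein signalling, 35.5 ± 3.2, 15.3 ± 0.5 and 5.09 ± 2.35 (SD, n = 3 each). These 6 rises held under both other scalings.

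Of the 6 largest falls with Bic/4AP, 5 were in genes that were high in untreated libraries and at 2.29 RPKM or less with both treatments. Aifm3, of the apoptosis-inducing factor family, had 0.656, 0.404 and 0.770 RPKM with Bic/4AP, 2.26, 1.85 and 1.38 with TTX and 48.9, 36.4 and 57.9 untreated (log2 change -4.90 ± 0.19 with Bic/4AP and -4.09 ± 0.19 with TTX; adjusted p = 3.72e-09 and 3.28e-08, limma). Kl, the anti-ageing FGF23 coreceptor klotho, had 2.29, 1.83 and 2.25 RPKM with Bic/4AP, 0.603, 0.560 and 0.565 with TTX and 57.4, 42.3 and 65.7 untreated. Igf2, an imprinted growth factor whose start lies in a run of 4 member bins, had 1.53, 1.59 and 1.18 RPKM with Bic/4AP, 0.578, 0.354 and 0.547 with TTX and 48.8, 35.2 and 53.9 untreated. Robo3, an axon guidance receptor, averaged 0.143 ± 0.084 RPKM with Bic/4AP, 0.239 ± 0.097 with TTX and 21.9 ± 4.1 untreated (SD, n = 3 each). Plk5 (a polo-like kinase) fell by 4.23 on the log2 scale with Bic/4AP. With TTX, Otx2, a homeobox factor of forebrain and choroid plexus, fell to 0.295, 0.536 and 0.232 RPKM, against 15.9, 15.2 and 20.9 untreated, and Wdr86 was listed at 0 in every library of both treatments and had 14.9, 12.01 and 17.6 RPKM in the untreated ones.

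Markers of the choroid plexus, the epithelium that makes cerebrospinal fluid, moved with these falls. The summed RPKM of 15 such markers was between 39.8 and 45.1 with Bic/4AP, between 23.1 and 31.3 with TTX and between 527 and 790 untreated. All 15 were lower with both treatments at all 3 scalings, and none was below 1 RPKM in all libraries. Of all genes tested, 42.5% were lower with Bic/4AP at the deposited scaling, 30.9% under quantile normalization and 35.0% under loess. With TTX these shares were 23.5%, 31.9% and 35.4%. Kl and Otx2 are themselves on that list, and 6 of the 15 have a member bin in their span. The part of these cells in the falls of Aifm3, Robo3, Igf2, Plk5, Wdr86 and Apoe was not tested. The methylation and peak libraries are other cultures, and their choroid plexus content was not measured.

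**Figure D5:**
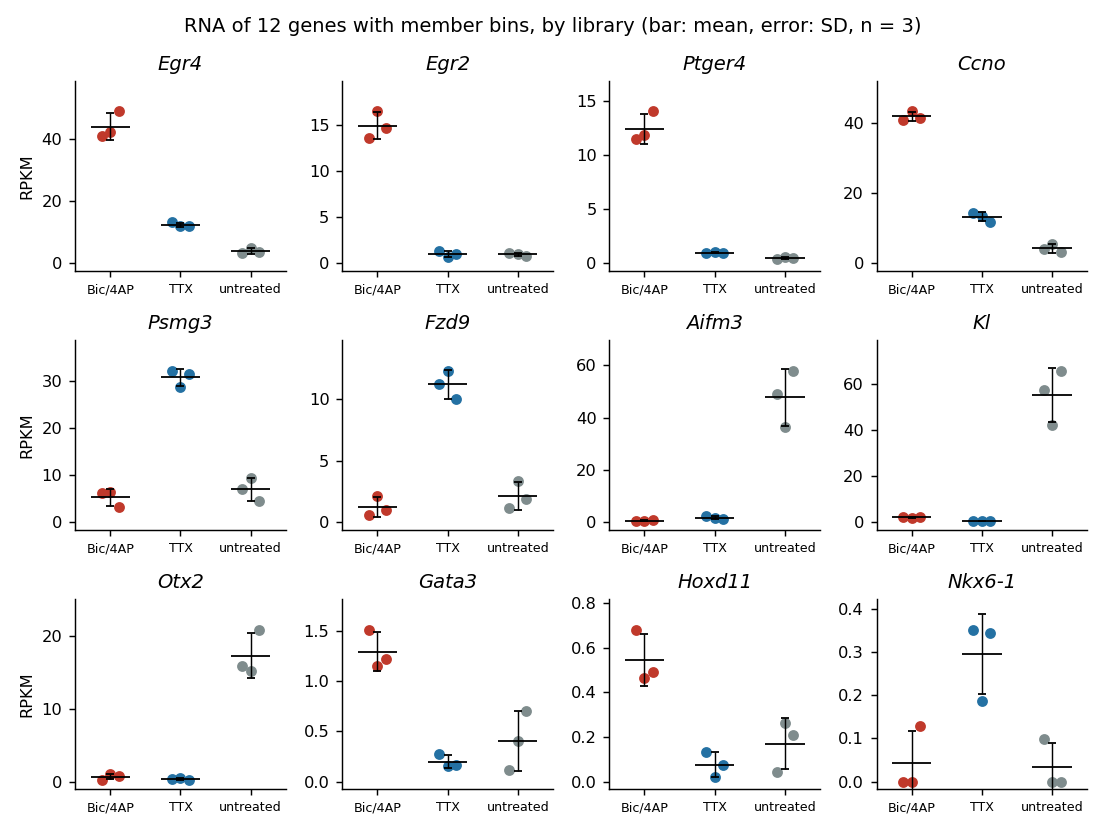
RPKM of 12 genes with member bins in each RNA library (points), with the mean and SD of 3 libraries, for Bic/4AP, TTX and untreated from left to right, each gene on its own scale from 0. Egr4, Egr2, Ptger4 and Ccno are highest with Bic/4AP, Psmg3 and Fzd9 with TTX, and Aifm3, Kl and Otx2 untreated, while Gata3, Hoxd11 and Nkx6-1 lie at or below 1.51 RPKM in every library.

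With TTX, 1365 (46.3%) of the 2949 genes rose and 557 (18.9%) fell relative to untreated, against 40.6% and 23.5% of all genes tested (limma). Quantile normalization gave 1260 and 772, against 37.3% and 31.9%, and cyclic loess 1022 and 900, against 30.8% and 35.4%. Libraries of the groups did not overlap for 71.4% of the 2949 genes, against 69.6% of all genes tested. The largest rises were in genes of varied function. Psmg3, a proteasome assembly chaperone, had 32.3, 28.8 and 31.5 RPKM with TTX and 6.32, 6.49 and 3.30 with Bic/4AP, against 7.19, 9.44 and 4.57 untreated (log2 change with TTX 2.03 ± 0.23; adjusted p = 2.01e-05, limma). Snrnp25, a protein of the minor spliceosome, had 25.8, 22.2 and 22.98 RPKM with TTX, against 4.48, 6.63 and 4.40 untreated (log2 change 2.01 ± 0.14). Fzd9, a Wnt receptor, had 11.3, 12.4 and 10.0 RPKM with TTX, against 1.18, 3.37 and 1.90 untreated. Prph, an intermediate filament of peripheral neurons, rose by 2.01, Fam131c by 1.97 and Aldh1b1, a mitochondrial aldehyde dehydrogenase, by 1.93 on the log2 scale.

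Between the treatments, 430 (14.6%) of the 2949 genes were higher and 1866 (63.3%) lower with Bic/4AP than with TTX, against 23.7% and 53.1% of all genes tested (limma). Quantile normalization gave 853 higher and 1187 lower, against 33.7% and 36.2%, and cyclic loess 900 and 1149, against 34.7% and 35.7%. Libraries did not overlap for 82.8%, against 81.5% of all genes tested. The 3 comparisons share libraries and are not independent. Rises included Egr2 (2.99 ± 0.16), Ptger4 (2.75 ± 0.14), Prok2 (2.39 ± 0.16) and Egr4 (1.76 ± 0.12) on the log2 scale. Rorb, an orphan nuclear receptor of cortical and circadian neurons, had 6.59, 5.97 and 7.56 RPKM with Bic/4AP, against 1.14, 1.31 and 0.754 with TTX, and Aqp3, a water and glycerol channel, had 2.63, 4.57 and 3.27, against 0.0897, 0.287 and 0.176. Falls included Bcdin3d, an RNA methyltransferase, at 0.348, 0.686 and 0.544 RPKM with Bic/4AP, against 11.7, 8.76 and 9.84 with TTX (log2 change -2.86 ± 0.16; adjusted p = 3.43e-08, limma). Etfb, a subunit of the mitochondrial electron transfer flavoprotein, had 2.44, 2.89 and 3.82 RPKM with Bic/4AP, against 29.1, 25.9 and 24.3 with TTX. Nat9, Fam109a, Chst12 and Fam212a fell by 2.82, 2.74, 2.64 and 2.59 on the log2 scale.

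Lists outside development varied in how many of their genes had a member bin. Polycomb subunits had a member bin in the span of 13 of 34 autosomal genes, and 1 of the 13, Phf19, was silent. Ezh2, the main methyltransferase of Polycomb complex 2, had 6.71, 7.11 and 6.9997 RPKM with Bic/4AP, 8.96, 7.94 and 8.68 with TTX and 6.85, 7.71 and 6.27 untreated. Of the 12 tested subunits with a member bin, 2 were higher and 7 lower with Bic/4AP, against 29.6% and 42.5% of all genes tested, and 3 higher and 6 lower under both other scalings. The whole list of 36 tested subunits gave 13 higher and 17 lower, 13 and 14 under quantile normalization and 14 and 14 under loess. With TTX 2 of the 12 were higher and 3 lower, against 40.6% and 23.5% of all genes tested, 2 and 6 under quantile normalization and 1 and 7 under loess. The whole list gave 10 and 8 with TTX, 6 and 20 under quantile normalization and 5 and 22 under loess. Readers, writers and erasers at unmethylated CpG islands, a list not limited to enzymes of CpG methylation, had member bins in 10 of 29 cases. Of 9 tested, 3 were higher and 3 lower with Bic/4AP, against the same 29.6% and 42.5% of all genes. The counts were 4 and 1 under quantile normalization and 5 and 1 under loess. The whole list of 28 tested genes gave 5 higher and 15 lower, 6 and 14 under quantile normalization and 7 and 14 under loess. With TTX the 9 gave 1 higher and 1 lower, 2 and 5 under quantile normalization and 0 and 5 under loess. The silent one was Dnmt3b, a de novo methyltransferase of the early embryo. Among cell type markers, interneuron markers had member bins in 6 of 11 cases, astrocyte markers in 6 of 12, oligodendrocyte markers in 6 of 8, vascular and mesenchymal markers in 6 of 12, progenitor and cycling markers in 7 of 8, hippocampal excitatory markers in 4 of 12, neuron markers in 2 of 10 and microglia markers in 0 of 9. All 12 interneuron markers, the 6 with member bins among them, rose with Bic/4AP at all 3 scalings, against 29.6% of all genes at the deposited scaling. With TTX 9 of the 12 were higher and 1 lower, and 5 of the 6 with member bins were higher, against 40.6% of all genes at the deposited scaling.

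The letters of the promoters were compared, as a description, between silent and other genes of member bins. The 300-base promoters of 434 starts of silent genes had a median of 19 CpGs, those of 3424 starts of genes that were not silent 22, those of 7349 starts in peak-bearing bins 25 and all 31396 autosomal starts 7. The ETS motif CCGGAAGT (either strand) was found in 1.15% of silent starts and 6.78% of starts that were not silent, against 9.53% in peak-bearing bins and 3.95% of all starts. The CRE, TGACGTCA, was found in 1.15% and 2.51%, against 4.16% and 1.83%, and the E-box CACGTG in 7.83% and 10.7%, against 10.6% and 7.14%. The TATA box TATAAA was in 7.37% and 5.93%, against 4.91% and 13.6%. These are letter matches in the window, and no binding of the factors was measured.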

How the data were processed

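RNA values are RPKM, deposited by the authors with 1 value per gene and library. Per the labels' protocols, the RNA is poly(A) selected and adaptors of bisulfite libraries were added after conversion. Methylation was deposited per CpG as a fraction, with no coverage column. The deposited peak lists hold the authors' score per peak, 50 or higher, 1 list per sample. The submitters' processing notes name mm10, MACS 1.4.1, SAMtools 0.1.19, Bowtie2 2.2.4 and TopHat. The bisulfite aligner and the strand setting of counting are not stated there. The RPKM of 3899 low genes were whole multiples of 1 read within 0.03, which gave relative depths, and the read numbers printed are the smallest whole numbers that match; total reads were not used here.

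Bin levels are means over CpGs listed in all 3 libraries. Gene starts came from the RefSeq promoter table (GRCm38.p6) and spans from the RefSeq gene table; of 24058 gene names 22550 matched a symbol, 1297 a synonym and 211 neither. RNA was tested with limma 3.58.1 (trend, all 9 libraries in 1 fit) on log2(RPKM + 1), keeping genes that reached 1 RPKM in 3 or more libraries, with Benjamini-Hochberg adjustment over all 14801 genes. Fold changes on this scale understate those of low genes. The fit was also run on simulated data drawn independently for each library, which cannot test the scaling. The outcome of that run is not given here. Bins, methylation, lists and motifs are described without a test. Alternatives changed the CpG minimum, level limit, peak rule, bin offset, pseudocount, filter, scaling, replicate block and libraries.

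The members and lists were chosen with earlier results of these data known. Named genes followed a rule: the 3 members of each developmental list with the most CpGs in their start bin, the 8 highest untreated levels, the 6 largest called changes each way per comparison at a mean of 2 RPKM or more in a group and no overlap of libraries, genes of the 5 longest runs, bins with the largest methylation differences, bins at the limit, and 10 fixed regulators. The marker lists cover choroid plexus, neurons, hippocampal excitatory neurons, interneurons, astrocytes, oligodendrocyte lineage, microglia, vascular and mesenchymal cells and progenitors.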

Additional observations from a re-analysis of the deposited data

How the results depend on the processing

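The 36 largest changes, taken by comparison, kept direction and call in every refit, 612 gene results in all. The refits covered pseudocount, filter, scaling, the replicate block, fits on the 6 libraries compared and leaving out each library. These changes were chosen for size, call and lack of overlap between groups, so their holding says little about smaller changes. The number of member bins was 5864 with a minimum of 40 CpGs, against 9352. The median untreated RPKM of genes starting in member bins, 7.04, was 7.93 with a level limit of 0.05, 6.28 with a limit of 0.20, 9.30 when a peak had to cover 50% of a bin and 8.35 with peaks of score 100 or more. The silent share was 6.63% below 0.5 RPKM, against 11.7%. The other settings of the bin rule kept the numbers of bins and genes and the silent share within 1.5 times.

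Of the 2949 tested genes starting in member bins, quantile normalization gave 1158 higher and 908 lower with Bic/4AP against untreated. Over all genes tested the shares there were 38.8% and 30.9%. Against TTX it gave 853 higher and 1187 lower, beside 33.7% and 36.2% of all genes. Cyclic loess gave 1045 higher against untreated (35.8% of all genes) and 900 lower with TTX against untreated (35.4%). With Bic/4AP against TTX it gave 900 higher and 1149 lower, beside 34.7% and 35.7%. Of the 82 developmental genes tested, 8 passed the filter through Bic/4AP libraries alone, 3 through TTX alone and 1 through untreated alone. The filter favoured the direction of these genes, and they stay in the counts. With Bic/4AP against untreated, 31 of the 82 were higher and 27 lower, against 29.6% and 42.5% of all genes tested. This became 51 and 11 under quantile normalization, against 38.8% and 30.9%, and 44 and 12 under loess, against 35.8% and 35.0%. Against TTX, 29 were higher and 28 lower, against 23.7% and 53.1% of all genes tested. The counts became 43 and 18 under quantile normalization, against 33.7% and 36.2%, and 45 and 18 under loess, against 34.7% and 35.7%. With no filter, 202 were fitted, since more genes entered. Against untreated 65 were higher and 33 lower, against 23.5% and 31.9% of all genes fitted. Against TTX 64 were higher and 38 lower, against 20.5% and 37.9%. With a filter of 0.3 RPKM, 122 were fitted. Against untreated 49 of the 122 were higher and 32 lower, and against TTX 46 were higher and 36 lower. Of all 3213 genes starting in member bins fitted there, 688 were higher and 1526 lower against untreated. Against TTX, 474 of the 3213 were higher and 1936 lower. Shares over all genes are not given for this filter, so its counts cannot be set against them.

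Of the 2949 genes tested, leaving out each library in turn gave 545 to 758 higher and 1365 to 1464 lower with Bic/4AP against untreated. It gave 1163 to 1494 and 474 to 562 with TTX, and 382 to 465 and 1738 to 1926 with Bic/4AP against TTX. Shares over all genes are not given for these refits. In the main fit they were 29.6% and 42.5%, 40.6% and 23.5%, and 23.7% and 53.1%, in the same order. For the 82 developmental genes, those favoured by the filter included, the ranges were 27 to 33 and 22 to 27, 21 to 32 and 17 to 22, and 24 to 30 and 25 to 30. Same-numbered libraries did not deviate together (r between -0.173 and 0.0435, against -0.129 to 0.208 for different numbers). With 3 libraries a group this cannot show whether the numbers mark paired cultures, and the main fit treats them as unpaired. The replicate block gave 623 higher and 1452 lower of the 2949 genes with Bic/4AP against untreated, beside 633 and 1460 in the main fit. It changed none of the 36 calls above and moved no count by over 1.5 times. Its share over all genes is not given. Without genes that also start in a peak-bearing bin, an alternative chosen after seeing the data, the counts were 602 higher and 1419 lower for Bic/4AP against untreated. All genes tested in that fit gave 29.6% higher and 42.5% lower. RNA depth, methylation coverage that is not in the files, and 1 bisulfite library a treatment limit these results.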
